A study of Rattus norvegicus with 2 samples.

Results

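The genes described here carry out the synthesis, vesicle storage, reuptake and breakdown of catecholamines, the amine transmitters of the sympathetic nervous system. They are Th, Ddc, Dbh, Gch1, Qdpr, Cyb561, Slc18a2, Slc18a1, Slc6a2 and Maoa, and they were chosen by symbol. Each of the 10 genes was matched by at least 1 probe set that the platform annotation gives exactly 1 gene symbol, and all 13 such probe sets were used, out of 12783 single-symbol probe sets for 10411 genes. Gene expression had been measured in rat sympathetic neurons on 2 one-colour Affymetrix Rat Expression Set 230A arrays. The first group was neurons from co-culture with myocytes, the muscle cells they contact as a target, and the second was neurons cultured alone, with 1 array in each group. According to the labels' protocol, neurons were rinsed off dishes holding myocytes or other flat cells with 1 mM EDTA over 2 min, so cells that came off with them belong to the sample. The labels used here give no strain, age, culture time or treatment for either group.

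Labels of the co-culture sample disagree: its title and source name put myocytes in the dish, while its description field speaks of neurons grown alone. The first 2 fields were followed, and "co-culture" below means the array so titled. With 1 array per condition, no difference has a replicate check and none was tested, so a difference is one between 2 arrays. The deposited values are signal intensities on a linear scale, with medians over all probe sets of 175.0 in co-culture and 185.7 in neurons alone. The number of arrays limits the precision.

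As background, noradrenaline is made in steps. Th, tyrosine hydroxylase, turns tyrosine into L-DOPA and sets the rate of the pathway, Ddc removes the carboxyl group to give dopamine, and Dbh turns dopamine into noradrenaline inside the vesicle. Th needs the pterin cofactor tetrahydrobiopterin, whose synthesis begins with Gch1 and which Qdpr restores after use, and Dbh needs ascorbate, to which Cyb561 passes electrons across the vesicle membrane. Slc18a2 is the monoamine transporter of neuronal vesicles and Slc18a1 the form known from endocrine cells, Slc6a2 takes released noradrenaline back into the neuron, and Maoa, a mitochondrial oxidase, degrades it. Th, Dbh and Slc6a2 are used as markers of noradrenergic neurons, whereas others of these genes, such as Qdpr and Maoa, are active in many tissues.

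Of the 10 genes, 9 were lower and Maoa was higher in neurons that had grown with myocytes, each gene being represented by its probe set with the highest mean log2 signal. Over all genes, 49.7% were lower, and a further 1220 of 10411 were under the floor of 39.6 in both arrays, the 20th percentile of all signals, to which lower values were set. A difference of at least 1.5-fold downwards was seen for Slc6a2, Gch1 and Slc18a1, 3 of 10, where 5.55% of all genes were as low, and Slc6a2 alone was at least 2-fold lower, where 1.13% of all genes were. Slc18a1 was under 1.5-fold with quantile normalization, lowess correction, a floor at the 40th percentile or a pseudocount (log2 ratios of -0.58, -0.58, -0.44 and -0.54), and Gch1 as the mean over its probe sets (-0.54). Th was past 1.5-fold with quantile normalization (-0.59). The 10 genes had a median log2 ratio (co-culture over neurons alone) of -0.43 (range -1.34 to 0.26), and all genes had one of 0.00. The median of all genes fell among those under the floor in both arrays, and it was -0.05 without a floor. Without Slc6a2, the median of the other 9 was also -0.43. At the level of single probe sets, 11 were lower and 2 were higher.

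**Figure D1:**
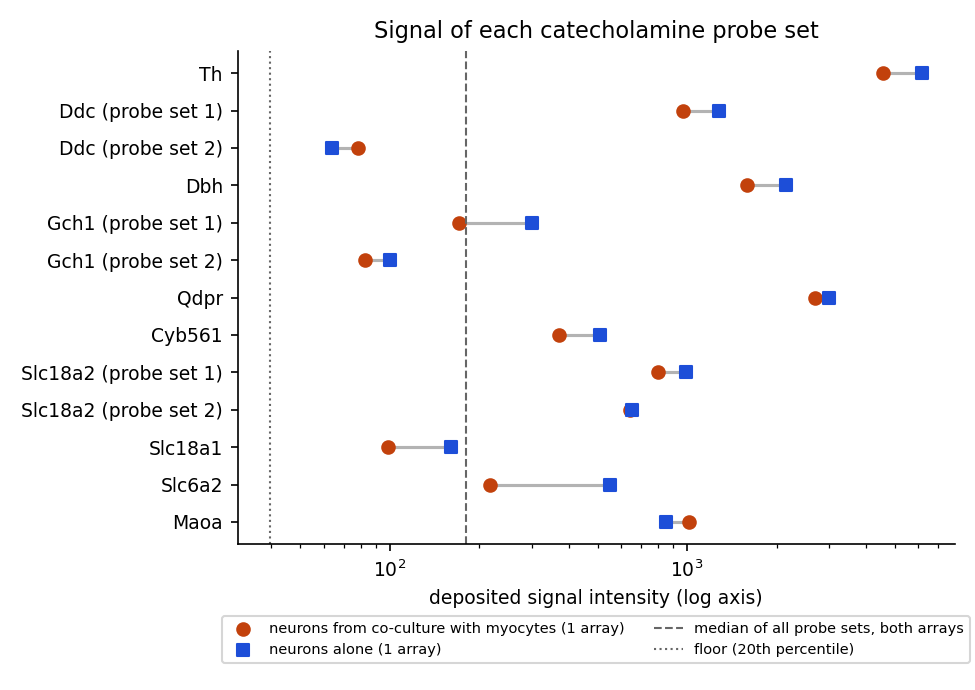
Deposited signal intensity (log axis) of each of the 13 probe sets of the 10 genes; round points are neurons from co-culture with myocytes and squares neurons alone, 1 array each, and no error bar can be drawn. Slc6a2 has the widest gap, 217 in co-culture and 552 in neurons alone, and Maoa and the second probe set of Ddc are the 2 with the co-culture point to the right.

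On their brightest probe sets and without further scaling, the synthesis enzymes lay close together. Th (probe set 1387075_at) had a signal of 4575 in co-culture, against 6175 in neurons alone, which is 1.35-fold lower. Dbh (1370564_at) had 1596 in co-culture and 2159 in neurons alone, also 1.35-fold lower. The brighter probe set of Ddc (1368064_a_at) had 972 in co-culture and 1281 in neurons alone, 1.32-fold lower. The log2 ratios of these enzymes were -0.43, -0.44 and -0.40. All these signals were far above the array medians. Cyb561, picked with its value known from the genes that supply cofactor and electrons, had a log2 ratio of -0.45. With it added, the log2 ratios of these 4 genes on their brightest probe sets spanned 0.06. They were further apart with quantile normalization, at -0.59 for Th, -0.45 for Dbh, -0.39 for Ddc and -0.40 for Cyb561. The others of the group of Cyb561, Gch1 and Qdpr, had -0.81 and -0.16 without further scaling.

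A scale for such differences comes from genes measured by several probe sets, whose ratios should be alike. Over 1868 such genes, the SD of the log2 ratio of 1 probe set was 0.22 among the brightest of 4 equal groups above the pooled median signal, 0.34 among the dimmest of the 4, and 0.36 below that median. For each gene, only the brightest and the next brightest probe set were compared, grouped by the mean signal of the pair. The SD was then read off by the signal of the single probe set described. Probe sets under the floor in both arrays have equal values there, which lowers the SD below the pooled median. This SD covers disagreement between probe sets on the same pair of arrays and leaves out any spread between cultures or hybridisations. The log2 ratios of Th and Dbh were 1.99 and 2.00 times the SD for their signal. The span of 0.06 over Th, Ddc, Dbh and Cyb561 was smaller than the SD for their signal, 0.22 and, for Cyb561, 0.28. Their closeness therefore does not show that they changed alike.

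Ddc has a second probe set (1375317_at), which was dim and ran the other way. Its signal was 78.4 in co-culture and 64.0 in neurons alone, a log2 ratio of 0.29, and both values were under the array medians. The Ddc probe sets thus differed by 0.69 on the log2 scale, and 12.5% of all genes with several probe sets differed as much. The lower level of Ddc rests on its brighter probe set, whose suffix marks several transcripts.

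Among the genes that supply cofactor and electrons, Gch1 stood lowest. Its brighter probe set (1387221_at) had a signal of 171 in co-culture, under that array's median, against 300 in neurons alone, 1.76-fold lower. The second one (1368503_at) had 82.9 in co-culture and 100 in neurons alone, 1.21-fold lower, so both had the lower value in co-culture but with log2 ratios of -0.81 and -0.27. Cyb561 (1398383_at) had 371 in co-culture and 509 in neurons alone, 1.37-fold lower. Qdpr (1367695_at), which recycles the cofactor in many tissues, had 2686 in co-culture and 3009 in neurons alone. Its log2 ratio of -0.16 was smaller than the SD of 1 probe set at its signal.

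Slc6a2, the noradrenaline transporter, differed most. Its only probe set was 1387418_a_at, whose suffix marks several transcripts. The signal was 217 in co-culture and 552 in neurons alone, a log2 ratio of -1.34 or 2.54-fold lower. That is 4.70 times the SD of 1 probe set at that signal. Of all 10411 genes, Slc6a2 had the 42nd lowest log2 ratio. It was the 10th lowest of the 6077 genes whose mean signal was at or above the pooled median. Its log2 ratio was below that of Th by 0.91, with an SD of 0.36 for a difference between probe sets of these genes. A factor common to a whole array leaves this difference as it is, but corrections that vary with signal do not: the log2 difference was -0.69 after quantile normalization and -0.75 after lowess correction.

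The vesicular transporters were measured by 3 probe sets. Slc18a2 had 797 in co-culture and 990.5 in neurons alone on its brighter probe set (1369131_at), 1.24-fold lower. On its other probe set (1369132_at), also well above the medians, it had 644 in co-culture and 651 in neurons alone, a log2 ratio of -0.02. For this gene the probe sets therefore do not settle whether there was a difference. Slc18a1 (1387999_at) had 98.6 in co-culture and 161 in neurons alone, 1.64-fold lower, with both signals under the array medians.

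Maoa, the degrading enzyme, was the exception. Its only probe set (1370678_s_at, a type shared by several transcripts) had a signal of 1019 in co-culture, against 848 in neurons alone, 1.20-fold higher. The log2 ratio of 0.26 was 1.22 times the SD of 1 probe set at that signal. It lay 0.70 above that of Th.

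**Figure D2:**
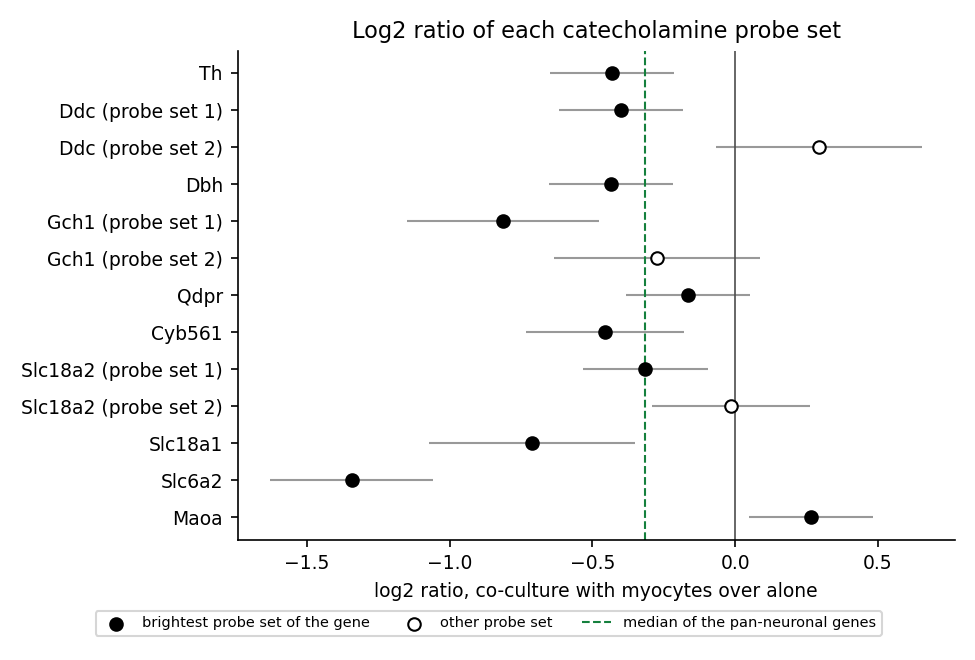
Log2 ratio of co-culture over neurons alone for each of the 13 probe sets; filled points are the brightest probe set of a gene, open points the others, and bars are 1 SD of a single probe set's log2 ratio at that signal, taken from genes with several probe sets, not a replicate error. Slc6a2 lies at -1.34, Th, Dbh and the brighter Ddc probe set lie between -0.44 and -0.40, and the dashed line marks the pan-neuronal median of -0.31.

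**Figure D3:**
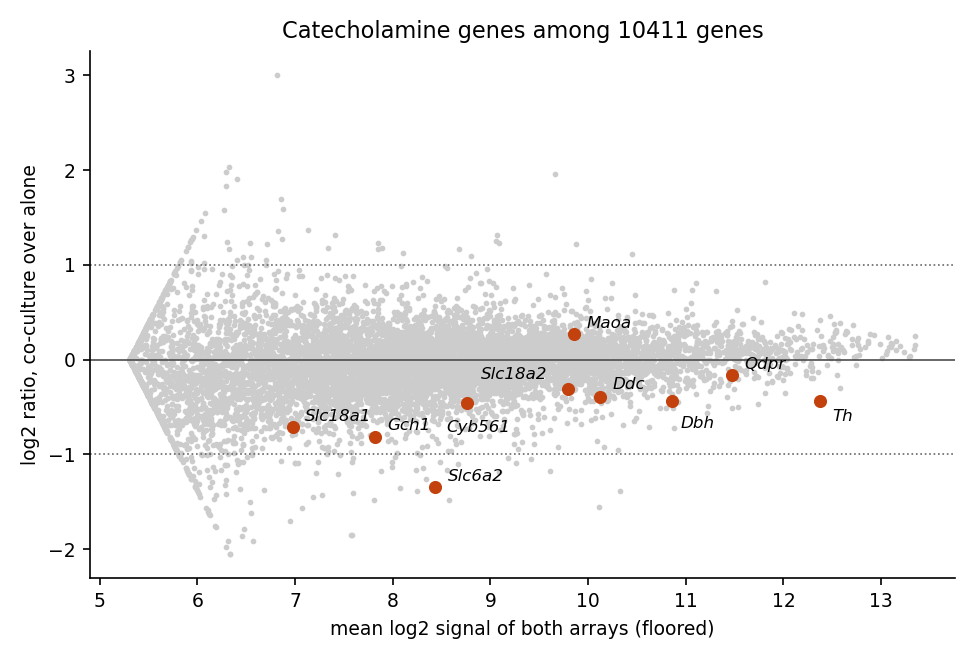
Log2 ratio of co-culture over neurons alone against the mean log2 signal of both arrays for all 10411 genes (grey) and the 10 catecholamine genes (orange), 1 point per gene; dotted lines mark 2-fold. Slc6a2 is the orange point beyond the line, and Maoa is the one above 0.

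Start regions of Th, Slc18a2, Dbh, Gch1 and Maoa are shown, and those of Ddc, Qdpr and Cyb561 were searched but are not printed. Any link between these sequences and the log2 ratios was not tested. For 8 of the 10 genes, all but Slc6a2 and Slc18a1, RefSeq promoter windows of build GRCr8 were matched by symbol, 10 windows in all since Ddc has 3. Each runs from 250 bases before the annotated start to 50 bases after it. Capitals mark TGACGTCA (the cyclic AMP response element, CRE), TGACG (the CRE core, which also lies within the CRE, once on each strand), TGANTCA (AP-1) and GGGCGG (GC box), searched on both strands.
Th (GRCr8 chr1:207508169-207508468, minus strand): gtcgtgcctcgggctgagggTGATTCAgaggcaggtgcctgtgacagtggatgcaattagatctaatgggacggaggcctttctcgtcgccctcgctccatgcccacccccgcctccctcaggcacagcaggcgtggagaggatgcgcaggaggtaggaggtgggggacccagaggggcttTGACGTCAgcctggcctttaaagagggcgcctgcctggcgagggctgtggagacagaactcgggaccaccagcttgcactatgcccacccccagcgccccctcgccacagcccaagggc
Slc18a2 (GRCr8 chr1:268399771-268400070, plus strand): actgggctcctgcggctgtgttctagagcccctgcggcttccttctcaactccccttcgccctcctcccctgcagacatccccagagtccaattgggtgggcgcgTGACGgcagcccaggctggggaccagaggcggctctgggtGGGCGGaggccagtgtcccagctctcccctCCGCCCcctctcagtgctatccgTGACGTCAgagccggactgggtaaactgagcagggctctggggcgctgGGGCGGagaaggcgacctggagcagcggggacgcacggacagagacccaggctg
Dbh (GRCr8 chr3:30886078-30886377, plus strand): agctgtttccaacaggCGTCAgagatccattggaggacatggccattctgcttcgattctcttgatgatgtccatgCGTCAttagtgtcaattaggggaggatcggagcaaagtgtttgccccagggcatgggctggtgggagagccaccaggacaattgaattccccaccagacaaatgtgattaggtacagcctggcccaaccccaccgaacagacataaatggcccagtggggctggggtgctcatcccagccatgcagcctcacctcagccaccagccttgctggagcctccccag
Gch1 (GRCr8 chr15:22917363-22917662, minus strand): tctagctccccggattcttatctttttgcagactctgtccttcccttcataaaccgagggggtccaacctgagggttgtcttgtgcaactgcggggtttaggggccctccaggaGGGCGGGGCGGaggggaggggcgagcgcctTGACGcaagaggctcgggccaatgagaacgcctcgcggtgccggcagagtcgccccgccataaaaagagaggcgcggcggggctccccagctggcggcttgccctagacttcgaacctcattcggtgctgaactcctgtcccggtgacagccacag
Maoa (GRCr8 chrX:8681323-8681622, minus strand): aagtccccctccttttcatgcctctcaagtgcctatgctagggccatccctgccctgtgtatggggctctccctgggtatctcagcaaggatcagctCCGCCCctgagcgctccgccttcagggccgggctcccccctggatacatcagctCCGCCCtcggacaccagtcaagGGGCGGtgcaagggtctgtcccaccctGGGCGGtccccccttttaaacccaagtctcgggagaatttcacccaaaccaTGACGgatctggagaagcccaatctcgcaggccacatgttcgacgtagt

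The full CRE was found in the windows of Th, where it begins 69 bases before the start, and Slc18a2, where it begins 52 bases before it. That is 2 of 10 windows, beside 1.83% of all 33469 promoter windows. The CRE core was found in 6 of 10 windows (21.2% of all windows), with 2 matches for Dbh, both on the opposite strand. An AP-1 match was found in 2 of 10 (7.33% of all) and a GC box in 5 of 10 (33.1% of all), with 4 in the window of Maoa. The homeodomain core ATTA was in 5 of 10 (60.6% of all), among them Dbh with 3, and CANNTG, the E-box, in 9 of 10 (72.1% of all). These matches describe the letters in the windows only.

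Other genes of amine metabolism were taken from a list of 24, of which 15 had a single-symbol probe set. In co-culture 9 of the 15 were lower and 3 higher, and the other 3 (Slc22a2, Slc22a3 and the copper pump gene Atp7a) were under the floor in both arrays. Of all 10411 genes, 5178 (49.7%) were lower and 4013 higher. The 15 genes had a median log2 ratio of -0.06 (range -1.43 to 0.22), beside -0.43 for the 10 catecholamine genes and 0.00 for all genes. Without a floor these medians were -0.18, -0.43 and -0.05. The lists are not alike in signal: 4 of the 15 genes had a mean signal at or above the pooled median, against 9 of the 10. Pnmt, which turns noradrenaline into adrenaline, was the only one of the 15 at least 1.5-fold apart. It had a signal of 44.6 in co-culture and 120 in neurons alone, 2.69-fold lower, with both values under the array medians.

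The others of the list, all under 1.5-fold, are given as well, chosen outside the rule for named genes after their values were seen. Maob, the other monoamine oxidase, had 111 in co-culture and 162 in neurons alone, 1.46-fold lower and dim in both. Pts, which acts after Gch1 in cofactor synthesis, had 86.8 in co-culture and 124 in neurons alone, 1.43-fold lower. Gchfr, the feedback regulator of Gch1, had 120 in co-culture and 125 in neurons alone. Among enzymes that can act on aldehydes or amines in later breakdown, Akr1a1 had 4582 in co-culture and 3933 in neurons alone, Aldh2 had 851 in co-culture and 757 in neurons alone, and Akr1b1 had 2236 in co-culture and 2344 in neurons alone. The remaining ones were dim and lower, Aldh1a1 with 54.0 in co-culture and 63.0 in neurons alone and Sult1a1 with 98.3 in co-culture and 111 in neurons alone. The copper importer gene Slc31a1 had 1110.4 in co-culture and 1020 in neurons alone on the brightest of its 3 probe sets, and the log2 ratios of the 3 ran from -0.47 to 0.29. The dopamine and serotonin transporter genes Slc6a3 and Slc6a4 were under the array medians in both arrays, at 146 and 81.4 in co-culture and 153 and 104 in neurons alone.

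The neuronal markers were lower as well. All 14 pan-neuronal genes measured of 15 listed were above the pooled median signal and lower in co-culture, with a median log2 ratio of -0.31 (range -0.71 to -0.12), and their summed signal was 36305 in co-culture and 43611 in neurons alone. Among them Prph had 4598 in co-culture and 5008 in neurons alone, Gap43 had 5028 in co-culture and 5492 in neurons alone, and Tubb3 had 3202 in co-culture and 3641 in neurons alone, log2 ratios of -0.12, -0.13 and -0.19. Others, picked with their values known, had log2 ratios below those of Th and Dbh: Ina (-0.71), Snap25 (-0.62), Elavl4 (-0.54), Gng3 (-0.52) and Nefm (-0.50). All 7 sympathetic neuron genes measured of 9 listed were lower too (median -0.23), with a summed signal of 10108 in co-culture and 12507 in neurons alone. These 7 were also above the pooled median signal. Beside the counts of both lists, 3209 of the 6077 genes at or above that median were lower in co-culture. In RNA from a whole sample, fewer neurons and less RNA of the neuronal genes per neuron cannot be told apart.

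Set against the pan-neuronal median, the catecholamine genes spread to both sides. Slc6a2 lay 1.03 below it on the log2 scale, Gch1 0.50 below and Slc18a1 0.40 below. The last 2 values depend on the processing: Gch1 was at -0.17 relative to the pan-neuronal median as the mean over its probe sets, and Slc18a1 at -0.12 with the floor at the 40th percentile. Th and Dbh lay 0.12 below it, Cyb561 0.14 and Ddc 0.08, all less than the SD of 1 probe set. With quantile normalization Th was at -0.25 relative to the pan-neuronal median, past its SD of 0.22. Ddc was above that median by 0.32 as the mean over its probe sets, and by 0.65 on its dim probe set alone. The log2 ratio of Slc18a2 on its brighter probe set equalled the pan-neuronal median to 2 decimals, Qdpr lay 0.15 above it and Maoa 0.58 above. The median of the 10 genes was below the pan-neuronal median by 0.12.

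**Figure D4:**
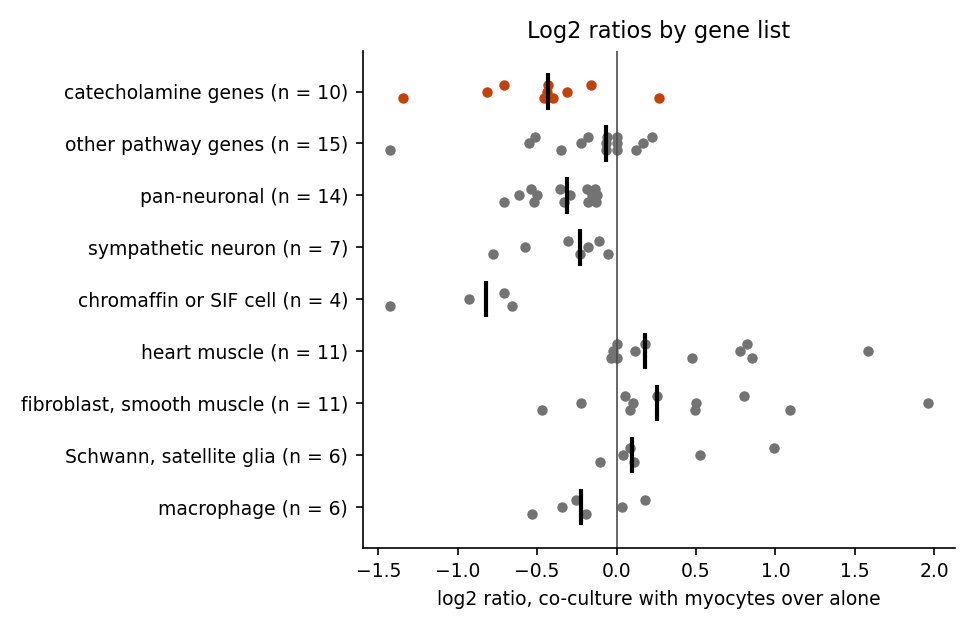
Log2 ratio of co-culture over neurons alone for the genes of 9 lists, 1 point per gene, with a black bar at each median; SIF stands for small intensely fluorescent. The 10 catecholamine genes have a median of -0.43, the 15 other pathway genes -0.06 and the 14 pan-neuronal genes -0.31.

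Markers of other cell types were measured beside these. Of 12 heart muscle genes 11 were measured, with a summed signal of 1712 in co-culture and 1257 in neurons alone. Nppa, the myocyte marker of the study, had 201 in co-culture and 178 in neurons alone, and Tnni3 and Ryr2 were under the floor in both arrays. Of the 11, 7 were higher in co-culture and 2 lower, and 4 were at least 1.5-fold higher. These 4, named after their values were seen, were Myl2 (134 in co-culture and 44.8 in neurons alone, 2.99-fold higher), Myh6 (1.81-fold), Myh7 (1.76-fold, under the floor in neurons alone) and Nppb (1.72-fold). Myl2, Myh6 and Myh7 were under the array medians in both arrays. The 4 heart muscle genes with a mean signal at or above the pooled median were Nppa, Nppb, Tnnt2 and Pln. Tnnt2 had 408 in co-culture and 293 in neurons alone, 1.39-fold higher, and Pln had 279 in co-culture and 284 in neurons alone. Tnnt2 and Pln, too, are named outside the rule for named genes. The 11 fibroblast and smooth muscle genes, all above the pooled median, summed to 50203 in co-culture and 45861 in neurons alone (9 higher, 2 lower). Mgp (3.89-fold), Dcn (2.13-fold) and Lum (1.75-fold) were the 3 at least 1.5-fold higher. The 2 lower ones were Acta2 (1.39-fold) and Tagln (1.17-fold). These genes, too, are outside the rule for named genes and were picked with their values known. Among all 10411 genes, 4013 were higher in co-culture and 259 were at least 1.5-fold higher. The 6 glial genes measured of 9 summed to 4706 in co-culture and 4541 in neurons alone. Of these, 5 were higher in co-culture, with S100b at 1.99-fold and Erbb3 at 1.44-fold (both, and Pmp22, named after their values were seen), and Pmp22 was lower (2916 in co-culture and 3141 in neurons alone). The 6 macrophage genes summed to 1116 in co-culture and 1219 in neurons alone (2 higher, 4 lower). The 4 genes listed for chromaffin or small intensely fluorescent cells, endocrine relatives of these neurons, were all lower in co-culture. Of all genes, 49.7% were lower. The summed signal of the 4 was 874 in co-culture and 1630 in neurons alone. Most of it came from Penk (600 in co-culture and 1142 in neurons alone), the only 1 of the 4 above the pooled median. Chga had 131 in co-culture and 206 in neurons alone. Penk and Chga are named outside the rule for named genes. The others are Pnmt and Slc18a1, which is also among the 10 catecholamine genes. The part of these cell types in the lower catecholamine signals, or in the higher signal of Maoa, was not tested.

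**Figure D5:**
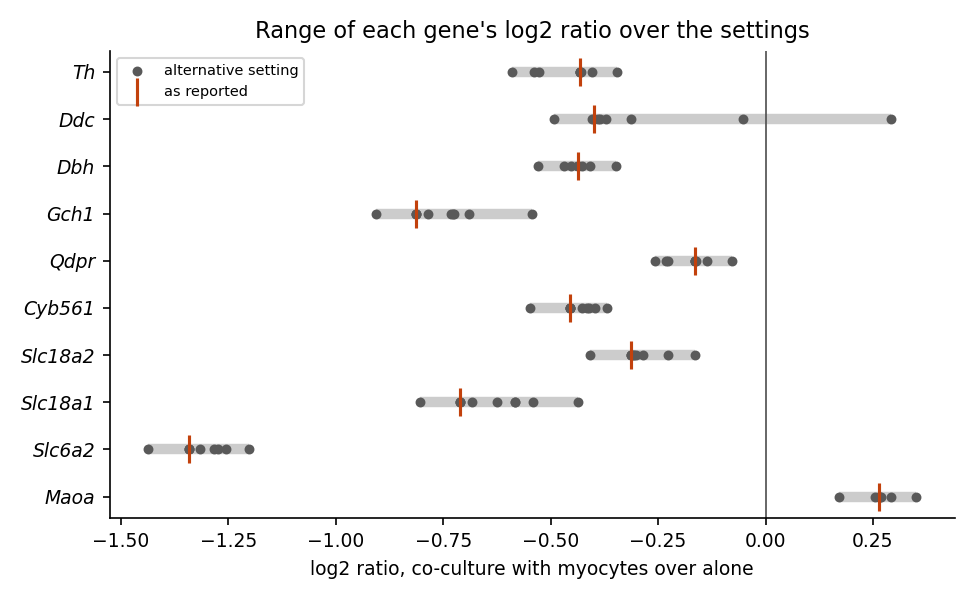
Log2 ratio of co-culture over neurons alone of each gene as reported (orange tick) and under each alternative way of scaling, flooring or choosing probe sets (grey points). Of the 10 genes only Ddc crosses 0, reaching 0.29 on its dim probe set, and Slc6a2 stays between -1.44 and -1.20.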

How the data were processed

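RNA of 2 samples was measured on 1 array each. The deposited values are intensities, 1 per probe set; the authors used dChip 1.3 per the series' design text, whereas the submitters' processing notes list MAS5. Which program gave the deposited intensity, and how it scaled or corrected background, is not given in the sources used here. Values under the pooled 20th percentile (39.6) were set to it and log2 was taken, with no further scaling. The 57 control probe sets were left out of 15923. A gene's value was its single-symbol probe set with the highest mean log2 signal. Symbols were updated through gene identifiers to the GRCr8 RefSeq table. The functions were tested on simulated data. The rule for named genes took all 10 genes with all their probe sets, other pathway genes at least 1.5-fold apart, and Nppa, Tubb3, Prph and Gap43; genes named outside it are said to be. The genes and lists were chosen with earlier results of these data known, and list summaries are descriptions of 2 arrays. Alternatives were 4 other scalings, 3 treatments of low values, 2 choices of probe set and 2 filters, and scaling to spiked controls, chosen after seeing the data. Computation used Python 3.11.15, pandas 2.3.3 and statsmodels 0.14.6.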

Additional observations from a re-analysis of the deposited data

How the results depend on the processing

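Spread between probe sets of a gene was used as a scale only. It is not a replicate error, which 1 array per group cannot give. Among the 10 genes, directions were those reported under each of the 10 alternatives that can change a single gene, where it gave a value, except for Ddc. Its log2 ratio was -0.053 as the mean over its probe sets and 0.29 without probe sets whose suffix marks several transcripts, which leaves only its dim probe set. Against the pan-neuronal median, Ddc was then 0.32 and 0.65 above in place of 0.08 below. The same restriction leaves no value for Slc6a2 or Maoa, so the number of genes at least 2-fold lower became 0. The median of the 10 genes ranged from -0.53 (scaling to spiked controls) to -0.35 (median scaling). The number of genes at least 1.5-fold lower was 2 or 3. Slc18a1 or Gch1 dropped out under some settings, and Th entered under quantile normalization. Under the restriction by suffix, Slc6a2 was the one missing. The median of the other pathway genes ranged from -0.18 without a floor to 0.15 over the 4 genes at or above the pooled median signal. It was -0.16 with scaling to spiked controls and 0.0042 after lowess correction. The cause was not tested. Slc18a1, Gch1 in co-culture and Pnmt lie near or under the array medians, where single probe sets are least precise. No paired analysis was possible because each group has 1 array.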
